A study of Rattus norvegicus with 7 samples.

Results

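The small leucine-rich proteoglycans are a family of secreted matrix proteins, and 9 of their genes, chosen by symbol, were followed here: Bgn (biglycan), Dcn (decorin) and Aspn (asporin) of class I, Fmod (fibromodulin), Lum (lumican), Prelp, Omd (osteomodulin) and Kera (keratocan) of class II, and Ogn (osteoglycin) of class III. All 9 were listed in both tissue tables, among 16223 symbols in hippocampus and 16183 in hypothalamus. Levels are FPKM, a fragment count corrected for transcript length and library depth, as deposited by the authors. With a minimum mean of 1 FPKM, 5 of the 9 were detected in each tissue, and these were the same genes: Bgn, Dcn, Fmod, Lum and Prelp. Their values were highest in hippocampus replicate 3 for 4 of the 5, and in hypothalamus replicate 2 for all 5. The remaining 4, Ogn, Omd, Aspn and Kera, were listed at 0 or stayed below 1 FPKM in every library.

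The series holds poly-A RNA sequencing of brain tissue from male Sprague Dawley rats, aged 2 months at the start, whose food was supplemented for 6 weeks with DHA (docosahexaenoic acid, a fatty acid of the omega-3 group). The 7 libraries analysed were 4 of hippocampus (replicates 1 to 4) and 3 of hypothalamus (replicates 1 to 3). All of them came from DHA-fed males of this strain, and the study's chow-fed arm was not analysed here, which leaves the diet without a comparison. The labels do not say whether replicates are separate animals, or whether the same rats gave both tissues, and the spread given here may be in part technical. In published work on diet and rat brain, Bgn and Fmod were singled out as regulators within brain gene networks.

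In this family, a run of leucine-rich repeats forms a curved protein core that binds collagen fibrils and sets their width and spacing, and most members carry chondroitin sulfate, dermatan sulfate or keratan sulfate chains. They also bind growth factors, among them transforming growth factor beta, and decorin and biglycan act on cell-surface receptors. In the brain, fibrillar collagen matrix of this kind is found mainly in the meninges, around larger vessels and in the stroma of the choroid plexus rather than among neurons. These RNA values are from whole dissected tissue, in which fewer cells of a type and less RNA per cell cannot be told apart.

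The upstream sequences of 3 members, Fmod, Kera and Omd, are given because only these had a window at the gene start. They were not chosen by level, and the listing of Omd at 0 leaves its expression unknown. Of the 9 members, 6 had an entry in the RefSeq promoter table of the rat assembly GRCr8 (Fmod, Lum, Kera, Ogn, Omd and Aspn), and in these 3 the entry began at the annotated gene start. Each line gives the 250 bases before that start, 5′ to 3′ on the gene's strand. Capitals mark matches to the motifs searched, on either strand.
Fmod: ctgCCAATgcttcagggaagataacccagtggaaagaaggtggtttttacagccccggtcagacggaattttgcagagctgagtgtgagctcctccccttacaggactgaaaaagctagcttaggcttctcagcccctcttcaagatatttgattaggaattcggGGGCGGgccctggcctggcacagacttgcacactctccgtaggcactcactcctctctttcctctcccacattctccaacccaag
Kera: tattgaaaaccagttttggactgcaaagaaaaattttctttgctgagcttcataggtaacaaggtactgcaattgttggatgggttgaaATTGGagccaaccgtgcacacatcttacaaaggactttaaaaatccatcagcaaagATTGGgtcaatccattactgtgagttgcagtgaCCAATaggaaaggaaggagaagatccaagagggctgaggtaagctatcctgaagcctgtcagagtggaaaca
Omd: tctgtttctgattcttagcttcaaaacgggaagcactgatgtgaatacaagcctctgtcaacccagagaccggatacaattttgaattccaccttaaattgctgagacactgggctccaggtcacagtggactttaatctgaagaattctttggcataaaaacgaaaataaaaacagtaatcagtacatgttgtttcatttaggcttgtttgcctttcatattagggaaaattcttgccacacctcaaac

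The Fmod window lies at chr13:48045317-48045566 on the plus strand, the Kera window at chr7:34283850-34284099 on the plus strand, and the Omd window at chr17:15274871-15275120 on the minus strand. The build of these windows differs from rn5, the build named in the submitters' processing notes, and the windows were used for their sequence only. The motifs were the TATA box written TATAAA, the CCAAT box, the GC box written GGGCGG, and the AP-1 site written TGACTCA. No match overlapped another. The Fmod window held 1 CCAAT box, its first base at position -247, and 1 GC box at position -85, counted back from the gene start. In the Kera window there were 3 CCAAT boxes, at -161 and -105 on the opposite strand and at -72 on the gene's strand. The Omd window held none of the 4 motifs, and no TATA box or AP-1 match was found in any of the 3. Over all 33469 windows of the same length, 12.9% held the TATA box, 34.0% the CCAAT box, 30.5% the GC box and 4.05% the AP-1 site. A match is a description of the letters and was not tied to the levels.

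Of class I, biglycan carries chondroitin or dermatan sulfate chains and, as a free protein, is known to signal through Toll-like receptors. The hippocampal Bgn levels were 10.7, 15.1, 51.8 and 16.6 FPKM in replicates 1 to 4, averaging 23.6 ± 19.0 (SD, n = 4). In hypothalamus it read 43.7, 109 and 18.5 FPKM in replicates 1 to 3, averaging 57.1 ± 46.7 (SD, n = 3). Replicate 3 was thus the high library in hippocampus, 3.13 to 4.83 times each of the others, while the other 3 lay close together. In hypothalamus, replicate 2 was 5.90 times replicate 3, and the hippocampal and hypothalamic values overlapped.

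Decorin, which binds collagen and growth factors and restrains several receptor tyrosine kinases, was the other class I member detected. Dcn read 20.7, 18.1, 39.0 and 54.2 FPKM in hippocampus, averaging 33.0 ± 16.9 (SD, n = 4). It read 34.6, 72.8 and 17.5 FPKM in hypothalamus, averaging 41.7 ± 28.3 (SD, n = 3). Dcn differed from the other detected members in that its highest hippocampal library was replicate 4, with replicate 3 at 0.719 times that value. Its hypothalamic values had replicate 2 highest and replicate 3 lowest, as for Bgn.

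Of class II, fibromodulin takes part in collagen fibril assembly and cross-linking. Fmod read 8.10, 1.68, 24.8 and 5.58 FPKM in hippocampus, averaging 10.05 ± 10.2 (SD, n = 4), so that its SD exceeded its mean. In hypothalamus it read 10.6, 31.6 and 6.23 FPKM, averaging 16.2 ± 13.5 (SD, n = 3). The range within hippocampus was the widest of the 5 genes: replicate 3 was 14.8 times replicate 2. A second hippocampal locus of Fmod was listed at 0 in replicates 1 and 2 and reached 0.672 FPKM in replicate 4, and the hypothalamus table held 1 locus.

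Lumican regulates the diameter of collagen fibrils and was the least abundant of the detected members. Lum read 1.61, 1.43, 5.95 and 1.66 FPKM in hippocampus, averaging 2.66 ± 2.19 (SD, n = 4). In hypothalamus it read 9.43, 12.3 and 2.34 FPKM, averaging 8.01 ± 5.11 (SD, n = 3). Hippocampus replicate 3 stood above the other 3, which lay between 1.43 and 1.66 FPKM, and it was the only hippocampal library that overlapped the hypothalamic range.

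Prelp encodes a member with a basic end region that binds heparan sulfate and links basement membranes to collagen. It read 16.5, 12.9, 42.6 and 18.1 FPKM in hippocampus, averaging 22.5 ± 13.5 (SD, n = 4). In hypothalamus it read 15, 55.1 and 24.0 FPKM, averaging 31.4 ± 21.0 (SD, n = 3). Prelp was the 1 detected member whose lowest hypothalamic library was replicate 1 rather than replicate 3. In the plot of levels by library, each gene spans a wide vertical range within a tissue.

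**Figure D1:**
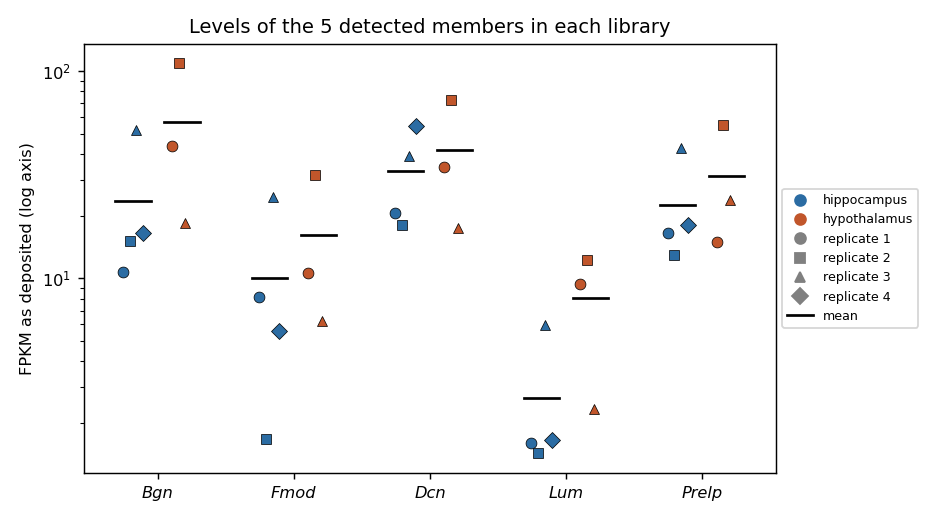
FPKM as deposited (log axis) of the 5 detected genes in each of the 7 libraries; colour gives the tissue, marker shape the replicate, and the black bar the mean. Hippocampus replicate 3 (blue triangle) is the highest hippocampal point except for Dcn, hypothalamus replicate 2 (orange square) is the highest hypothalamic point for every gene, and the tissues overlap in each gene.

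Since FPKM is scaled per length, levels can be set side by side between genes. By mean FPKM the order in hippocampus was Dcn, Bgn, Prelp, Fmod and Lum, and in hypothalamus Bgn, Dcn, Prelp, Fmod and Lum. The upper neighbours did not keep their order from library to library: Dcn was above Bgn in 3 of 4 hippocampus libraries but in none of the 3 hypothalamus libraries, where Bgn was above Dcn in 3 of 3. Bgn exceeded Prelp in 2 of 4 hippocampus and 2 of 3 hypothalamus libraries. The lower end was stable, since Fmod exceeded Lum in all 7 libraries and was below Dcn, Bgn and Prelp in all 7.

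Summed over the 5 genes, the level was 57.7, 49.3, 164 and 96.1 FPKM in hippocampus and 113, 281 and 68.6 FPKM in hypothalamus. Dcn held between 23.8% and 56.4% of this sum in hippocampus, highest in replicate 4, and between 25.6% and 30.5% in hypothalamus. Bgn held 17.3% to 31.6% in hippocampus and 27.0% to 38.8% in hypothalamus. Fmod ranged from 3.41% in hippocampus replicate 2 to 15.1% in replicate 3, and from 9.09% to 11.2% in hypothalamus. Prelp reached 35% in hypothalamus replicate 3, against 13.2% in replicate 1. The members therefore did not move in strict proportion, although their sum followed the same high libraries.

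**Figure D2:**
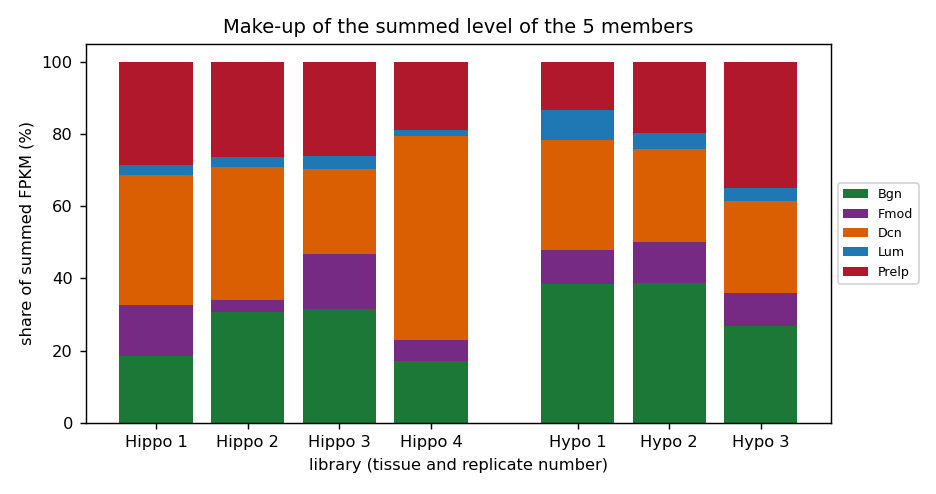
Share (%) of the summed FPKM of Bgn, Fmod, Dcn, Lum and Prelp held by each gene, with 1 stacked bar per library, starting at 0. Dcn takes 56.4% in hippocampus replicate 4, and Fmod shrinks to 3.41% in hippocampus replicate 2.

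Variation among replicates was compared with that of all symbols averaging 1 FPKM or more, as the SD of log2(FPKM + 1) over the libraries of a tissue. In hippocampus the members' SDs ran from 0.72 (Prelp) to 1.35 (Fmod), with a median of 0.73, where the median over 10309 symbols was 0.23. In hypothalamus they ran from 0.92 (Prelp) to 1.25 (Bgn), with a median of 1.06, where the median over 10757 symbols was 0.25. An SD at least as large as that of the least variable member was found in 3.71% of all symbols in hippocampus and in 2.02% in hypothalamus. That limit is set by the members themselves, so that all 5 of them reach it by construction. A single library carried much of this spread: without hippocampus replicate 3 the members' median was 0.31 (0.24 over all symbols), and without hypothalamus replicate 2 it was 0.67 (0.26 over all symbols).

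**Figure D3:**
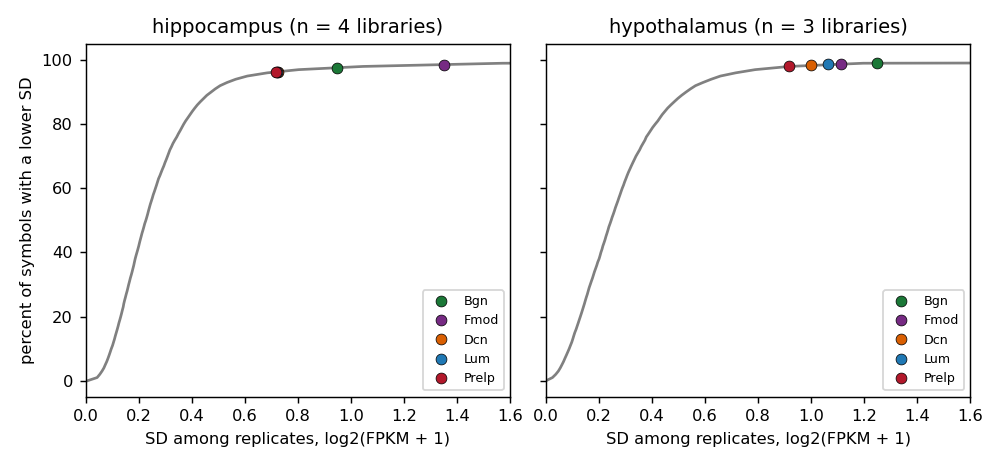
Cumulative share of symbols (vertical axis, %) against the SD among replicates of log2(FPKM + 1) (horizontal axis) in hippocampus and hypothalamus; the grey line is all symbols averaging 1 FPKM or more and the coloured points are the 5 genes. All 5 lie above the 96th percentile in hippocampus, where Dcn, Lum and Prelp fall on nearly the same point, and above the 97th in hypothalamus.

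For the pattern over libraries, each library was rescaled to the same sum, and log2(rescaled FPKM + 1) was taken as the difference from the mean of its tissue. Averaged over the 5 genes, this difference was -0.34, -0.84, 1.21 and -0.03 in hippocampus replicates 1 to 4 and -0.11, 1.11 and -1.01 in hypothalamus replicates 1 to 3. Hippocampus replicate 3 was the highest library of its tissue for 4 of 5 members, where 20.8% of 9741 symbols detected in both tissues had it highest. Hypothalamus replicate 2 was highest for 5 of 5, against 23.3% of symbols, and hypothalamus replicate 3 was lowest for 4 of 5, against 40.8%. Bgn, Fmod, Lum and Prelp, 4 of 5, had both high libraries together, as did 9.11% of symbols. Over 9761 symbols, the deviations of hippocampus replicate 3 and hypothalamus replicate 2 correlated at 0.32, so a shared deviation was not limited to the members. The libraries are not independent between genes, and no test was made.

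The other genes closest to this mean pattern, by root mean square difference over the 7 libraries, were Nid2, Slc22a8, Cpxm2, Lrrc32, Mustn1, LOC686539, Colec12, Bicc1, Dab2 and Fn1. Nid2, which encodes the basement membrane protein nidogen-2, was the nearest at a difference of 0.14 on the log2 scale, and Fn1, which encodes fibronectin, was the tenth at 0.25, where the median of all 9741 symbols was 0.84. Nid2 read 1.71, 1.37, 6.69 and 2.04 FPKM in hippocampus and 3.29, 6.73 and 1.73 FPKM in hypothalamus. Slc22a8, an organic anion transporter gene, read 5.66, 5.65, 15.5 and 8.15 FPKM and 27.1, 52.1 and 15.4 FPKM. Among the members themselves, which enter the mean, Bgn (0.31) and Lum (0.34) lay nearest to it and Fmod (0.52) farthest.

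Markers of other cell types were read beside this pattern. Of 18 listed markers of meningeal and perivascular fibroblasts, 16 were in both tables, and all 11 detected in both tissues were highest in hippocampus replicate 3 and hypothalamus replicate 2. Summed over the 16 in both tables, the level was 209, 38.8, 641 and 126 FPKM in hippocampus and 514, 998 and 205 FPKM in hypothalamus. Igfbp2, an insulin-like growth factor binding protein gene and the most abundant of them in hippocampus, read 110, 12.1, 281 and 50.7 FPKM there. Igf2 of the same list read 55.5, 5.14, 134 and 31.9 FPKM in hippocampus. Igfbp2 and Igf2 together made up most of the hippocampal sum in replicates 1, 3 and 4. Mgp, which encodes matrix Gla protein, read 159, 262 and 70.3 FPKM in hypothalamus, where it was the most abundant. Col1a1, which encodes a chain of type I collagen, read 3.95, 5.78, 71.9 and 7.43 FPKM in hippocampus and 18.9, 51.7 and 8.0 FPKM in hypothalamus, while Col1a2, the partner chain of the same collagen, was listed at 0 at both of its loci in all 7, which is given as a listing and not as absence.

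Vessel wall and choroid plexus genes also varied. The summed level of 6 mural cell markers was 71.1, 153, 1029 and 138 FPKM in hippocampus and 452, 641 and 125 FPKM in hypothalamus, but only 3 of the 6 were highest in hippocampus replicate 3. Acta2, the smooth muscle actin gene, made up most of the hippocampal sum in that library; it read 5.55, 90.4, 818 and 72.8 FPKM in hippocampus, at the higher of 2 loci. Tagln, a smooth muscle gene with a single locus and the most abundant in hypothalamus, read 25.7, 18.7, 161 and 15.3 FPKM in hippocampus and 200, 313 and 42.0 FPKM in hypothalamus. Rgs5, a pericyte gene, ran from 29.5 to 40.2 FPKM in hippocampus with replicate 4 highest, and the pericyte channel genes Abcc9 (2.48 to 3.59 FPKM) and Kcnj8 (1.24 to 1.57 FPKM) did not have replicate 3 highest either. Pdgfrb, also a pericyte gene, did, at 6.12, 6.26, 9.66 and 5.29 FPKM in hippocampus, and it was highest in replicate 2 in hypothalamus, at 7.43, 10.2 and 4.95 FPKM. The choroid plexus epithelium list summed to 4750, 35.5, 5976 and 2087 FPKM in hippocampus and to 15.3 to 54.1 FPKM in hypothalamus. Ttr (transthyretin), its most abundant gene, read 31.9 FPKM in hippocampus replicate 2, the library in which Fmod, Dcn, Lum and Prelp were also lowest, and at least 1967 FPKM in the other 3. Otx2 of this list was listed at 0 at both of its loci in all 7 libraries, which is given as a listing and not as absence.

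Lists of the cell types of the brain tissue itself moved less. The summed level of astrocyte markers differed at most 1.24-fold between hippocampus libraries and 1.41-fold between hypothalamus libraries. The corresponding ranges were 1.31-fold and 1.43-fold for endothelial markers, 1.29-fold and 1.32-fold for oligodendrocyte markers, 1.33-fold and 1.05-fold for microglia markers, and 1.55-fold and 1.3-fold for neuron markers. The summed fibroblast list ranged 16.5-fold and 4.87-fold, and the summed members 3.33-fold and 4.09-fold. The hippocampal range of the fibroblast list rests in large part on Igfbp2 and Igf2. The part of meningeal, vessel wall or choroid plexus tissue in the members' levels was not tested.

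**Figure D4:**
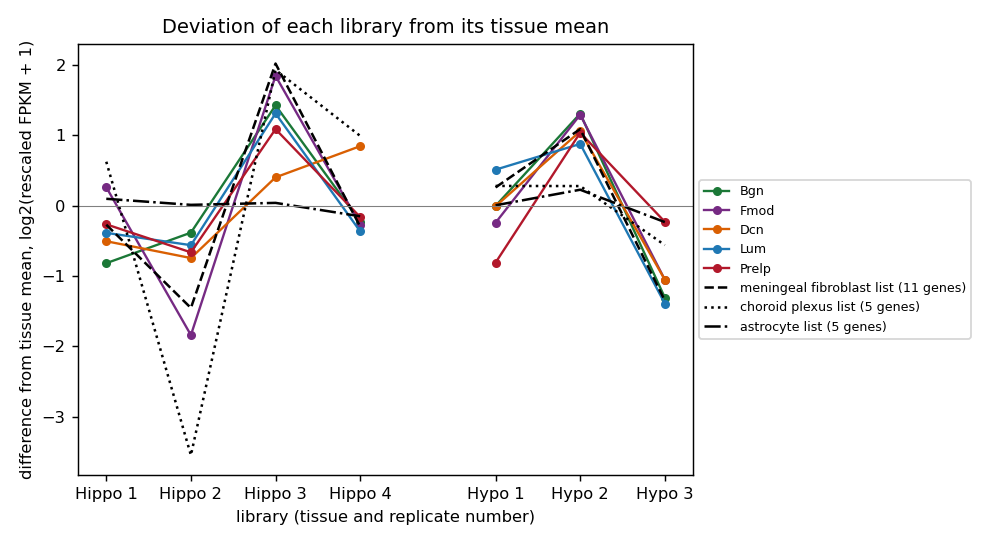
Difference of each library from its tissue mean in log2(rescaled FPKM + 1), for the 5 genes (coloured) and for the mean of 3 marker lists (black); lines join the points of 1 gene or list within a tissue and replicates have no order. The 5 genes peak at hypothalamus replicate 2 and, except Dcn, at hippocampus replicate 3, as the fibroblast list does, while the astrocyte list stays between -0.23 and 0.23.

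The tissues were then compared. Their labels fit the marker genes: Neurod6, a gene of hippocampal excitatory neurons, was at 59.0 to 77.0 FPKM in hippocampus and at most 1.13 FPKM in hypothalamus, and Avp, which encodes vasopressin, was at 2818 to 3712 FPKM in hypothalamus and at most 2.07 FPKM in hippocampus. Each tissue is its own table, so tissue and table cannot be told apart, and no p-value is given. The call for a higher level in 1 tissue required all its libraries to lie above all those of the other and the means of log2(rescaled FPKM + 1) to differ by at least 1, that is 2-fold. Of 10736 symbols that averaged 1 FPKM or more in at least 1 tissue, the minimum for this comparison, 13.4% were called higher in hypothalamus and 14.5% in hippocampus. With FPKM as deposited, without rescaling, 1819 symbols were higher in hypothalamus and 928 in hippocampus in place of 1439 and 1560, and the median difference of all symbols moved from -0.05 to 0.21.

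None of the 5 detected members was called in either direction, and each of them overlapped between the tissues, where 52.6% of the 10736 symbols had no overlap. The difference, hypothalamus minus hippocampus, was 1.15 for Lum, 0.89 for Bgn, 0.61 for Fmod, 0.13 for Prelp and -0.05 for Dcn on the log2 scale. The pooled SD among replicates was 1.03 for Lum, 1.12 for Bgn, 1.4 for Fmod, 0.84 for Prelp and 0.88 for Dcn, so that the Lum difference alone exceeded it. The median of the 5 was 0.61, against -0.05 over all 10736 symbols. Rescaled Lum read 4.67, 4.02, 17.4 and 4.75 in hippocampus and 22.4, 29.2 and 5.27 in hypothalamus. Lum became called higher in hypothalamus without hippocampus replicate 3 (difference 1.59) or without hypothalamus replicate 3 (1.85), so its overlap rests on those 2 libraries. With FPKM as deposited, Dcn turned from -0.05 to 0.24.

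Leaving out 1 library also moved the other members. Without hypothalamus replicate 2 the Bgn difference fell to 0.24 and that of Fmod to -0.04, and without hypothalamus replicate 3 they were 1.55 and 1.13. Without hippocampus replicate 2 the Fmod difference was -0.01, and without hippocampus replicate 3 it was 1.22. Dcn ran from -0.58 without hypothalamus replicate 2 to 0.47 without hypothalamus replicate 3, and Prelp from -0.39 without hypothalamus replicate 2 to 0.53 without hypothalamus replicate 1. The spread among libraries of a tissue was thus as large as the difference between tissues for Bgn, Fmod, Dcn and Prelp.

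**Figure D5:**
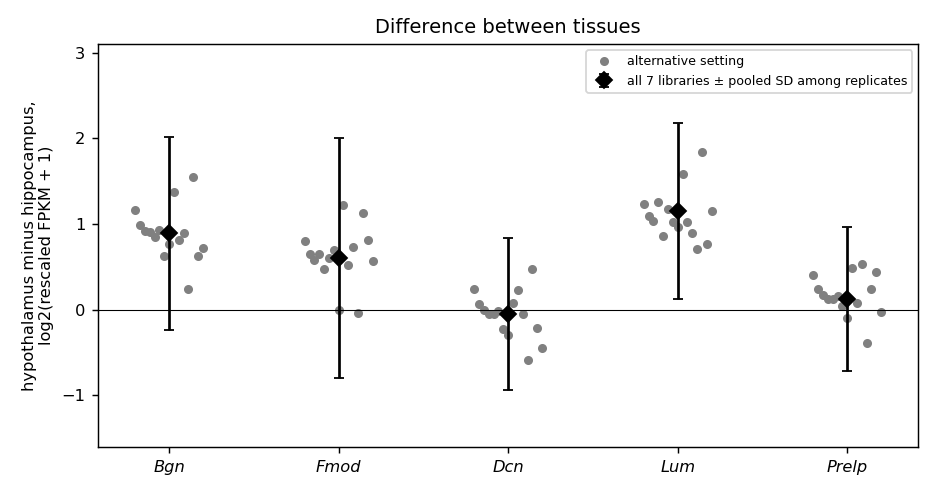
Difference between tissues (hypothalamus minus hippocampus, log2(rescaled FPKM + 1)) of each gene; black diamonds are all 7 libraries with the pooled SD among replicates as bars, and grey points are 15 alternative settings. The bars of Bgn, Fmod, Dcn and Prelp cross 0 and that of Lum does not.

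By the same rule, 3 of the 15 meningeal and perivascular fibroblast markers that passed the minimum were called higher in hypothalamus and none in hippocampus, with a median difference of 1.54. Of the other marker lists, 3 of 5 endothelial markers were called higher in hippocampus (median difference -1.26), 2 of 5 astrocyte markers higher in hypothalamus (0.40), and of 4 neuron markers 2 were higher in hippocampus and 1 in hypothalamus (-0.97). None was called among the markers of choroid plexus (-3.03), mural cells (0.58), oligodendrocytes (0.07) or microglia (0.43).

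The 4 members that were not detected were Kera and a cluster of 3 neighbouring genes. In the reference gene order, Ogn, Omd and Aspn are neighbours on chromosome 17, Dcn, Lum and Kera on chromosome 7, and Prelp and Fmod on chromosome 13, while Bgn lies on chromosome X. Kera, known for the transparency of the cornea, was listed at 0 in all 7 libraries at its single locus; its neighbours in that order are Lum and Epyc. Omd, first described in bone, was listed at 0 in all 7 libraries at both of its loci. Ogn, a collagen-binding member, was listed at 0 in hippocampus and read 0.0870, 0.165 and 0 FPKM in hypothalamus. Aspn, which binds collagen and transforming growth factor beta in cartilage, was listed at 0 in hippocampus, and in hypothalamus its 1 further locus read 0.764, 0.156 and 0.201 FPKM.

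In both tables Ogn, Omd and Aspn were listed in 2 nearby blocks that each also held Nol8. Nol8 encodes a nucleolar protein and is widely expressed, and it too was listed at 0 at both loci in all 7 libraries; it is named because of its place in these blocks, after its values were seen. Of symbols with 2 loci at most 10 locus numbers apart, 63.1% of 263 in hippocampus and 70.9% of 268 in hypothalamus were listed at 0 in every library of the table. Of symbols with 2 loci farther apart, 7.17% of 1367 and 9.45% of 1111 were, and of symbols with a single locus, 17.4% of 14425 and 16.9% of 14695. The 0 of Ogn, Omd and Aspn is therefore given as a listing, and their expression in these tissues is not known from it.

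Other members of the family, from a fixed list of 8, were mostly low. Of the 5 found in both tables, 3 passed the minimum and 2 were called, both higher in hypothalamus, with a median difference of 1.46. Tsku (tsukushi, a secreted inhibitor of several signalling pathways) read 1.44, 0.555, 1.51 and 0.371 FPKM in hippocampus and 4.08, 6.68 and 6.05 FPKM in hypothalamus, a difference of 1.99. Chad (chondroadherin, a cartilage protein) read at most 0.217 FPKM in hippocampus and 1.36, 2.46 and 0.597 FPKM in hypothalamus, a difference of 1.46. The call of Chad was lost with scaling to the upper quartile or by median of ratios, and without hypothalamus replicate 2. Its difference was 2.41 with 0.1 added before the log and 0.60 with 5 added. The scalings also change the weight of the added value, and the 2 effects were not separated. The other 2 of the 5 were under the minimum. Nyx (nyctalopin) was lower in hypothalamus with no overlap, at 0.109 to 0.292 FPKM in hippocampus against 0.0781 to 0.0939 FPKM. Epyc (epiphycan) read 0.0836 to 1.23 FPKM in hippocampus and was listed at 0 in hypothalamus. That listing gives no upper limit, so no direction is given for Epyc. Optc (opticin), the neighbour of Prelp, overlapped between the tissues at 0.467 to 1.09 and 1.02 to 1.65 FPKM.

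Most genes read for building the sugar chains of these proteins were detected in both tissues. Of 20 listed for chondroitin and dermatan sulfate, 16 were in both tables and all 16 averaged 1 FPKM or more in at least 1 tissue, 15 of them in both, with 1 called higher in each tissue and a median difference of -0.49. Chst12, a chondroitin sulfotransferase gene, read 5.25 to 8.59 FPKM in hippocampus and 17.0 to 30.4 FPKM in hypothalamus, a difference of 1.36. Chst15, which adds a further sulfate to chondroitin, read 7.11 to 12.6 FPKM in hippocampus and 2.55 to 5.57 FPKM in hypothalamus, a difference of -1.58. Dse, a dermatan sulfate epimerase gene, read 1.15 to 3.15 and 2.68 to 4.76 FPKM, and these ranges overlapped. Of 6 genes for keratan sulfate and tyrosine sulfation, 5 were in both tables and none was called, with a median difference of -0.32. The summed chondroitin list ranged 1.23-fold between hippocampus libraries and 1.31-fold between hypothalamus libraries.

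Among 10 listed ligands of the family, 8 passed the minimum, with 3 called higher in hypothalamus and 1 in hippocampus and a median difference of 0.86. Tgfb1 (transforming growth factor beta 1), which decorin, biglycan and fibromodulin bind, read 4.33, 5.52, 6.63 and 3.69 FPKM in hippocampus and 13.7, 21.0 and 15.7 FPKM in hypothalamus, a difference of 1.39. Bmp2 (bone morphogenetic protein 2) read 0.416 to 1.17 against 2.78 to 3.40 FPKM, a difference of 1.5. Igf1 (insulin-like growth factor 1) read 1.52 to 2.36 against 3.75 to 6.90 FPKM, a difference of 1.21. Pdgfb (platelet-derived growth factor B) went the other way, with 10.1 to 11.5 FPKM in hippocampus and 2.84 to 4.62 FPKM in hypothalamus, a difference of -1.75. The other 4 that passed, Tgfb2, Tgfb3, Bmp4 and Bmp6, were not called and overlapped between the tissues after rescaling, although Bmp4 did not overlap in FPKM as deposited (4.25 to 5.43 against 6.51 to 12.1).

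Of 15 listed receptors, 14 passed the minimum, 1 was called higher in hippocampus and none in hypothalamus, with a median difference of -0.21. Met, the hepatocyte growth factor receptor gene whose product decorin binds, read 3.22 to 4.94 FPKM in hippocampus and 0.392 to 0.682 FPKM in hypothalamus, a difference of -2.44. Tlr2 and Tlr4, the Toll-like receptor genes tied to biglycan, were low, at 1.53 to 2.68 FPKM and 0.254 to 1.44 FPKM over all 7 libraries. Of 9 proteases, 5 passed the minimum and 1, Tll1, was called higher in hippocampus (1.46 against 0.356 FPKM). The median difference of the 5 was -0.11. The Tll1 call was lost with each of the 3 other scalings. Its difference was -2.17 with 0.1 added before the log and -0.65 with 5 added, and scaling was not separated from the weight of the added value. Bmp1, which encodes a protease that trims the biglycan precursor, overlapped at 4.74 to 7.40 and 5.19 to 8.82 FPKM.

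Collagens and their fibril partners followed the members most closely of the lists read. Of 14 listed, 12 were in both tables, and all 9 detected in both tissues were highest in hippocampus replicate 3 and hypothalamus replicate 2. The collagen and fibroblast lists are not separate sets: they share 3 genes, Col1a1, Col3a1 and Col1a2, of which 2 were detected in both tissues. The mean pattern of the 9 lay 0.21 from that of the members by root mean square difference, against 0.42 for mural, 0.44 for meningeal fibroblast, 0.69 for endothelial and 1.25 for choroid plexus markers. Loxl1, a lysyl oxidase-like gene of elastic fibre assembly, was the 1 called, at 0.657 to 3.46 FPKM in hippocampus and 6.82 to 24.6 FPKM in hypothalamus, a difference of 2.30, and the median over the 10 that passed the minimum was 0.66. Summed, the list read 32.0, 23.3, 137 and 27.5 FPKM in hippocampus and 94.1, 196 and 45.0 FPKM in hypothalamus.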

How the data were processed

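RNA-seq values of 7 libraries were used, in the FPKM that the authors deposited, with hippocampus and hypothalamus in separate tables. The submitters' processing notes name TopHat, Bowtie, Cufflinks, Cuffdiff and build rn5, with no version or role; strand setting, annotation and normalization are not given in the sources used here. Depth is unknown, so no counting error was computed. Loci without an OK status (86 in hippocampus, 24 in hypothalamus, none of a member) were dropped, and the locus with the highest mean represents a symbol. Tissues were joined by symbol (15805 shared), and for comparing tissues every library was brought to a total of 1000000. Log values are log2(value + 1), which understates changes of low genes. The other scalings keep values at or near the deposited FPKM, so there the added 1 weighs more on low genes. Levels and the SDs among replicates within a tissue use FPKM as deposited, and the pooled SDs of the tissue comparison use rescaled values. The genes named were the members, the ligands, receptors, enzymes and matrix partners called between tissues (up to 3 per direction and list), the most abundant markers of other cell types (their calls are given as counts), and the 10 symbols nearest to the members' mean pattern; the other list genes named, with their values, were added after their values were seen. The members and lists were chosen with earlier results of these data known. The call rule, SD and nearest-pattern steps were tested on simulated data. Python 3.11.15, pandas 2.3.3 and numpy 2.4.6 were used.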

Additional observations from a re-analysis of the deposited data

Results flagged for a closer look

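In the 4 hippocampus libraries, 23 results were examined by Dixon's ratio. It is the gap between an extreme library and its nearest neighbour divided by the whole range. For normally distributed values chance marks about 1 in 20. The ratios were taken on FPKM without logs, where this rate may not hold and a flag can depend on the scale. Members and lists share libraries. A library stood apart in 5 of them. Bgn (10.7 to 51.8 FPKM) had a ratio of 0.858 and Lum (1.43 to 5.95 FPKM) a ratio of 0.949, both with replicate 3 high. The summed collagen and fibril list (0.924; 23.3 to 137 FPKM) and the summed mural list (0.915; 71.1 to 1029 FPKM) were high in the same library. The summed list for keratan sulfate and tyrosine sulfation was low in replicate 4, at 115 against 145 to 150 FPKM, with a ratio of 0.863.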

How the results depend on the processing

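The labels do not say that replicate numbers mark the same rats. The deviations of same-numbered libraries from their tissue means, over 9761 symbols, correlated at -0.09, -0.20 and -0.34. No hippocampus library correlated best with its own number, and the numbers were not taken as pairs. The largest positive correlation, 0.32, was between hippocampus replicate 3 and hypothalamus replicate 2. With a replicate block, chosen after seeing the data, as the mean of the 3 same-numbered differences, 0 members were called in either direction: Bgn was at 0.82, Fmod at 0.52, Dcn at 0.23, Lum at 1.03 and Prelp at 0.07, and none had the same sign in all 3 pairs. All 11 of the other genes named as called kept their call under the block, and over all symbols 1428 were called higher in hypothalamus and 1538 in hippocampus. The count of members called higher in hippocampus was 0 under every alternative run. The count called higher in hypothalamus was 0 under the other scalings, pseudocounts, minimums and summed loci, and between 0 and 1 when 1 library was left out. Without hippocampus replicate 3 and hypothalamus replicate 2 together, an alternative chosen after seeing the data, it was 1, Lum. The members' median SD ran from 0.31 to 0.87 in hippocampus and from 0.67 to 1.41 in hypothalamus when 1 library was left out. Over the 15 other alternatives that can change a difference, its sign was kept in 15 for Bgn and Lum, 13 for Fmod, 12 for Prelp and 10 for Dcn, all within 1 pooled SD. Tsku, Chst12, Chst15, Tgfb1, Pdgfb and Loxl1 stayed called under all 17 (these 15 and the settings of the minimum), Igf1 and Met under 16, Bmp2 under 15, Tll1 under 12 and Chad under 11. Igf1 was lost with a pseudocount of 5, Met with a minimum mean of 5 FPKM, and Bmp2 with either. The causes of these changes were not tested. With depth unknown, a listing at 0 gives no upper limit.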
